A study of Mus musculus with 20 samples.

Results

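The 9 genes Phgdh, Psat1, Psph, Shmt1, Shmt2, Mthfd1, Mthfd2, Mthfd1l and Aldh1l2, which encode enzymes of serine synthesis and folate-linked one-carbon metabolism, were described in bone marrow-derived macrophages (BMDMs) exposed to airway fluid fractions. They were chosen by gene symbol, with the expression values of these libraries in view, and were taken from a table of 78317 genes, of which 34342 had a count in at least 1 of 20 libraries. Which values entered that choice is not recorded, so the folds and tests given for them describe these libraries and are not independent evidence. All 9 were listed, and 6 or 7 of them, depending on the comparison, passed the filter on low values.

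The macrophages were wild type in every group, grown from C57BL/6J bone marrow of female mice and used on day 7 of culture. They received PBS, or an EV-enriched fraction (EVFx) or protein-enriched fraction (ProteinFx) of bronchoalveolar lavage fluid (BALF) from ovalbumin-challenged mice, in Opti-MEM without serum. The fluid came from RNY1+/+ mice or from RNY1-/- mice, which lack the Y RNA gene RNY1, so RNY1+/+ and RNY1-/- name the donors of the fluid and not the macrophages. The 5 groups (PBS, RNY1+/+ EVFx, RNY1-/- EVFx, RNY1+/+ ProteinFx and RNY1-/- ProteinFx) had 4 libraries each. EVFx was given at 35000000 particles per µL and ProteinFx at 0.75 µg protein per µL, after 5 days of storage of the fractions. The 2 fractions were thus dosed in different units, and the length of treatment is not given in the sources used here.

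Serine is made from a glycolytic intermediate by PHGDH, PSAT1 and PSPH in turn. The hydroxymethyltransferases SHMT1 (cytosol) and SHMT2 (mitochondria) pass a carbon of serine to tetrahydrofolate, yielding glycine. In mitochondria MTHFD2 oxidises the carbon unit and MTHFD1L releases it as formate, while ALDH1L2 can oxidise it fully to CO2. In the cytosol MTHFD1 loads formate back onto folate for the synthesis of purines, thymidylate and methionine. MTHFD2 is known for low levels in most resting adult tissues, and with the serine synthesis genes it is a known target of the stress-responsive transcription factor ATF4.

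Library totals ranged from 2510005 to 8277366 counts, with 3.80% to 7.32% of counts from mitochondrially encoded genes. Within groups, PBS replicate 3 stood apart from the other PBS libraries, and RNY1-/- ProteinFx fell into 2 pairs, replicates 1 and 2 against replicates 3 and 4. All 8 macrophage markers, among them Adgre1, Csf1r and Lyz2, were above 3 counts in every group. Neutrophil markers summed to between 328 and 364 CPM (counts scaled to a common library total) in PBS and between 156 and 221 CPM in RNY1+/+ EVFx. In the other 3 groups this sum lay between 198 and 402 CPM, 6 or 7 of the 10 markers were above 3 counts in each group, and up to 3 were at 0. Eosinophil markers summed to at most 2.83 CPM in any library, T cell markers to at most 9.22 CPM, B cell markers to at most 4.34 CPM, airway epithelium markers to at most 19.5 CPM and fibroblast markers to at most 42.2 CPM. The part of these cell types in the results was not tested, and a change in cell number cannot be told apart from a change in RNA per cell in bulk samples.

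Against PBS, Mthfd2 was the member with the widest separation. It rose under all 4 treatments, to 11.9 times the PBS mean under RNY1+/+ EVFx and to 6.98 times under RNY1-/- ProteinFx. Psat1, Psph and Mthfd1l rose under the same 4 treatments by smaller amounts, while neither Mthfd1 nor Shmt2 passed the test against PBS, except under some of the other settings given with their values. With an adjusted p under 0.05 as the limit, 4 of the 6 members tested were higher and 0 were lower under each treatment. Over all genes tested, 21.7% were higher and 22.8% lower under RNY1+/+ EVFx, 27.7% and 30.6% under RNY1-/- EVFx, 25.9% and 29.3% under RNY1+/+ ProteinFx, and 16.7% and 19% under RNY1-/- ProteinFx. The median log2 fold change of the 6 members was 0.85, 0.87, 0.71 and 1.14 in these comparisons, beside medians of -0.03 over all genes. Without RNY1-/- ProteinFx replicates 1 and 2, 3 members were called under that treatment, and 4 without replicates 3 and 4. Of all genes, 4328 of 10941 and 1572 of 10934 passed in these fits. Differentially expressed genes (DEGs, with an absolute log2 fold change above 1 as well) were 3, 3, 2 and 4 of the members, beside 16.4%, 22.5%, 21.3% and 14.3% of all genes. The 4 comparisons share the PBS libraries.

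**Figure D1:**
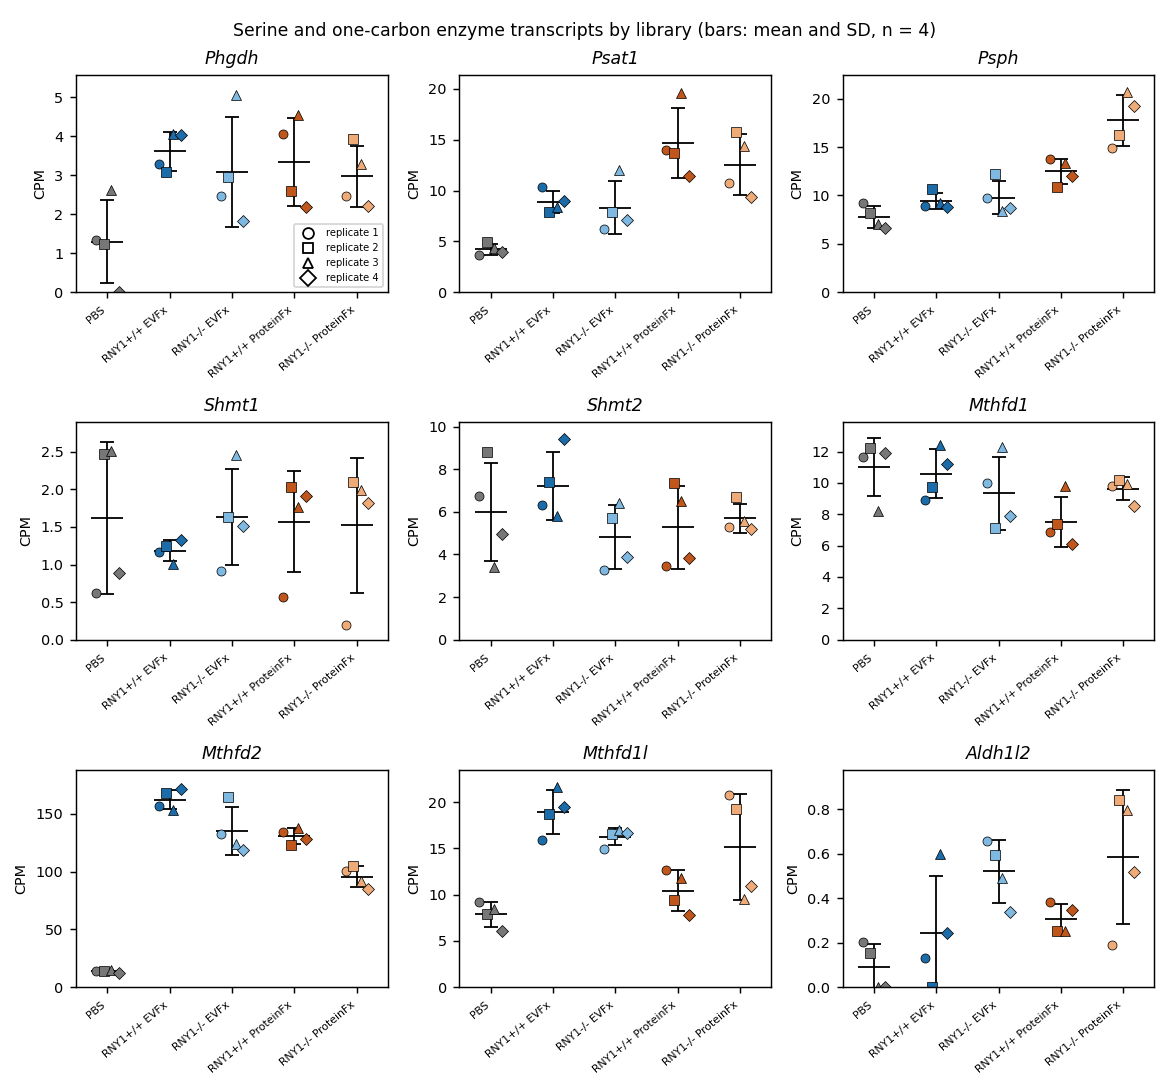
CPM (vertical axis, from 0, scaled per gene) of the 9 enzyme transcripts in each library, by treatment group (horizontal axis), with marker shapes for replicate numbers and bars for the mean and SD of 4 libraries. Mthfd2 sits between 11.9 and 15.1 CPM in PBS and between 84.6 and 171 CPM in the 16 treated libraries, and Mthfd1l in RNY1-/- ProteinFx splits into 2 libraries near 20 CPM and 2 near 10 CPM.

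Mthfd2 (ENSMUSG00000005667), the mitochondrial methylenetetrahydrofolate dehydrogenase and cyclohydrolase, lies on chromosome 6, 83305691-83325908, minus strand, in the GRCm38 annotation. The 4 PBS libraries held 13.9, 13.7, 15.1 and 11.9 CPM (13.7 ± 1.31, SD, n = 4). Under RNY1+/+ EVFx it reached 157, 168, 153 and 171 CPM, and under RNY1-/- EVFx 133, 164, 123 and 119 CPM. No treated library came near the PBS range, and the 2 EVFx groups overlapped through the 164 CPM of RNY1-/- EVFx replicate 2. Under RNY1+/+ ProteinFx the values were 135, 123, 138 and 128 CPM, and under RNY1-/- ProteinFx 101, 104, 91.6 and 84.6 CPM. RNY1-/- ProteinFx was therefore the lowest of the treated groups, with no library inside the range of another group. The log2 fold changes against PBS were 3.75 (standard error, SE, 0.11, adjusted p = 3.04e-09), 3.54 (0.13, adjusted p = 1.25e-08), 3.43 (0.12, adjusted p = 1.22e-09) and 2.87 (0.12, adjusted p = 8.81e-08) in the order RNY1+/+ EVFx, RNY1-/- EVFx, RNY1+/+ ProteinFx and RNY1-/- ProteinFx. By log2 fold change Mthfd2 ranked 97 from the top among 10797 genes under RNY1+/+ EVFx, and 98 of 10727, 141 of 10832 and 114 of 10854 under the other treatments.

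The Mthfd2 promoter is shown because this gene carried the widest difference from PBS. The RefSeq window (GRCm38.p6, chr6:83317555-83317854, minus strand) runs from 250 bases before to 50 bases after a RefSeq start, which lies inside the gene span given above.
Mthfd2: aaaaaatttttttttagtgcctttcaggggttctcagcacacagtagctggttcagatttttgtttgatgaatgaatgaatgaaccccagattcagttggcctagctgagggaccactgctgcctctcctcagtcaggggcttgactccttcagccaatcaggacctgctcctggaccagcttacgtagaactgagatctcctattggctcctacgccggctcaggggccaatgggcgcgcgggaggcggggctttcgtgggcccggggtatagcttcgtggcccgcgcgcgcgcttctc
The letters TGATGNAA, a core of the response element that ATF4 binds with C/EBP partners, were searched on both strands in the 32851 windows of this table and were present in 3.97% of them. They were in 0 of the 9 windows of the 8 members listed (Psat1 has 2 windows, Aldh1l2 none), and in windows of 7 of the 17 listed genes of the ATF4 list described further on. Among the latter are the asparagine synthetase Asns, the pseudokinase Trib3, the stress protein Nupr1 and the cystine transporter Slc7a11, shown for comparison with the match in capitals. The matches begin 23 bases before the start in Asns (window chr6:7693160-7693459) and 14 after it in Trib3 (chr2:152344011-152344310). They begin 110 before it in Nupr1 (chr7:126625421-126625720) and 66 before it in Slc7a11 (chr3:50443564-50443863). These windows are read on the minus strand, and the Trib3 and Nupr1 matches are the reverse complement of the letters. A further Slc7a11 match, 47 bases before the start, is not shown.
Asns: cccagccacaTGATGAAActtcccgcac
Trib3: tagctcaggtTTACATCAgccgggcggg
Nupr1: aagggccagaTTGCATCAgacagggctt
Slc7a11: ctcatgtggcTGATGCAAacctggagaa
The E-box CACGTG, bound by MYC, was in 7.15% of all windows and in 0 of the members' windows. The antioxidant element TGACNNNGC, bound by NRF2, was in 12.4% of all windows and in the windows of 2 members, Phgdh and Psph, again in capitals, 53 bases before the start (chr3:98339920-98340219, minus strand) and 4 after it (chr5:129787204-129787503, minus strand).
Phgdh: gcccggggagGCGGAGTCAgcagagttta
Psph: acgcccagttGCGACGTCAttgcgcatct
A match is a string of letters and was not tested as a binding site. Sequence outside these windows was not searched. The 0 of 9 member windows is near the 3.97% and 7.15% of all windows for TGATGNAA and CACGTG. It does not show that the members lack these elements. The 7 of 17 genes come from a list of known ATF4 targets.

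Mthfd1l (ENSMUSG00000040675), the mitochondrial formyltetrahydrofolate synthetase that frees formate, held 9.22, 7.88, 8.46 and 6.05 CPM in PBS. It reached 15.9, 18.8, 21.6 and 19.5 CPM under RNY1+/+ EVFx and 14.97, 16.5, 16.995 and 16.7 CPM under RNY1-/- EVFx, with no overlap with PBS. The log2 fold changes were 1.44 (SE 0.16, adjusted p = 3.33e-05) and 1.29 (0.16, adjusted p = 4.91e-05). Under RNY1+/+ ProteinFx it held 12.6, 9.38, 11.8 and 7.81 CPM, a range that overlaps PBS, with a log2 fold change of 0.57 (adjusted p = 0.0336). That call was lost without PBS replicate 2 (0.55, adjusted p = 0.074) or 4 (0.45, adjusted p = 0.105), and without RNY1+/+ ProteinFx replicate 1 (0.46, adjusted p = 0.109) or 3 (0.51, adjusted p = 0.0797). Total-count scaling (0.40, adjusted p = 0.123), housekeeping scaling (0.51, adjusted p = 0.0621) and no filter (0.55, adjusted p = 0.0679) also ended it. The RNY1-/- ProteinFx libraries held 20.8 and 19.3 CPM in replicates 1 and 2 but 9.56 and 10.9 CPM in replicates 3 and 4. Over all 4 the log2 fold change was 1.03 (SE 0.25, adjusted p = 0.0107). It was 0.52 (adjusted p = 0.126) without replicates 1 and 2, and 1.37 (adjusted p = 0.0027) without replicates 3 and 4.

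Aldh1l2, the mitochondrial formyltetrahydrofolate dehydrogenase, was at or under 3 counts, the level taken as not measurable, in 17 of 20 libraries. Its 38 counts over all libraries ranged from 0 to 6 per library, and it was not tested.

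Of the serine synthesis genes, Psat1 (ENSMUSG00000024640, the phosphoserine aminotransferase) held 3.69, 4.94, 4.35 and 3.91 CPM in PBS. RNY1+/+ EVFx brought it to 10.3, 7.88, 8.41 and 8.94 CPM and RNY1-/- EVFx to 6.17, 7.89, 12.1 and 7.07 CPM. RNY1+/+ ProteinFx brought it to 13.97, 13.7, 19.6 and 11.5 CPM and RNY1-/- ProteinFx to 10.8, 15.8, 14.3 and 9.34 CPM. Every treated library was above every PBS library. The log2 fold changes were 1.24 (SE 0.17, adjusted p = 0.000145), 1.17 (0.23, adjusted p = 0.0014), 1.94 (0.21, adjusted p = 1.47e-05) and 1.63 (0.22, adjusted p = 0.000311).

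Psph (ENSMUSG00000029446), the phosphatase of the last step, held 9.22, 8.19, 7.09 and 6.58 CPM in PBS. The EVFx values were close to these, at 8.92, 10.6, 9.21 and 8.82 CPM for RNY1+/+ and 9.72, 12.2, 8.37 and 8.75 CPM for RNY1-/-, and both groups overlapped PBS. ProteinFx gave 13.8, 10.9, 13.3 and 11.97 CPM from RNY1+/+ fluid and 14.9, 16.2, 20.7 and 19.2 CPM from RNY1-/- fluid, all above PBS. The log2 fold changes were 0.45 (adjusted p = 0.0376) and 0.58 (adjusted p = 0.0166) for EVFx, and 0.85 (adjusted p = 0.00147) and 1.24 (adjusted p = 0.000841) for ProteinFx. Without PBS replicate 1 or 3 the RNY1+/+ EVFx call was kept (adjusted p = 0.0276 and 0.0468), and without any 1 of the other 6 libraries it was lost (adjusted p from 0.0527 to 0.115). It was also lost with DESeq2, total-count scaling, no filter and thinned counts (log2 fold changes from 0.27 to 0.51, adjusted p from 0.0596 to 0.178). The RNY1-/- EVFx call was lost without RNY1-/- EVFx replicate 2 (0.47, adjusted p = 0.0589), with total-count scaling (0.34, adjusted p = 0.135) and with thinned counts (0.47, adjusted p = 0.0904).

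Phgdh (ENSMUSG00000053398), the dehydrogenase that opens the pathway, stayed under the filter against PBS, so no call is given for it there. PBS libraries held 1.33, 1.24, 2.61 and 0 CPM, from 0 to 11.42 counts. The treated libraries held between 1.84 and 5.07 CPM. The group means were 3.62 CPM for RNY1+/+ EVFx, 3.08 CPM for RNY1-/- EVFx, 3.35 CPM for RNY1+/+ ProteinFx and 2.97 CPM for RNY1-/- ProteinFx, beside 1.29 CPM in PBS. Only the RNY1+/+ EVFx libraries had no overlap with PBS. The counts carried fractions in 18 of 20 libraries, as happens when reads also map elsewhere. A pseudogene, Phgdh-ps1, is among the genes listed, so these values are uncertain.

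Shmt2 (ENSMUSG00000025403) and Mthfd1 (ENSMUSG00000021048) had no call against PBS. Shmt2 averaged 6.00 ± 2.32 CPM in PBS and between 4.82 and 7.24 CPM in the treated groups. All of its group ranges overlapped PBS, and the largest log2 fold change was 0.44 (95% interval -0.15 to 1.02, adjusted p = 0.209) under RNY1+/+ EVFx. That value passed with length and GC trends removed (0.46, adjusted p = 0.042). Mthfd1 averaged 11.01 ± 1.86 CPM in PBS and between 7.53 and 10.6 CPM in the treated groups. Its lowest value against PBS was a log2 fold change of -0.40 (95% interval -0.84 to 0.04, adjusted p = 0.108) under RNY1+/+ ProteinFx, which passed without PBS replicate 3 (-0.52, adjusted p = 0.0181), with total-count scaling (-0.57, adjusted p = 0.0318) and in 1 fit of all 20 libraries (-0.44, adjusted p = 0.0464). Shmt1 had group means between 1.19 and 1.63 CPM, with 3 of 20 libraries at or under 3 counts, and was not tested.

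**Figure D2:**
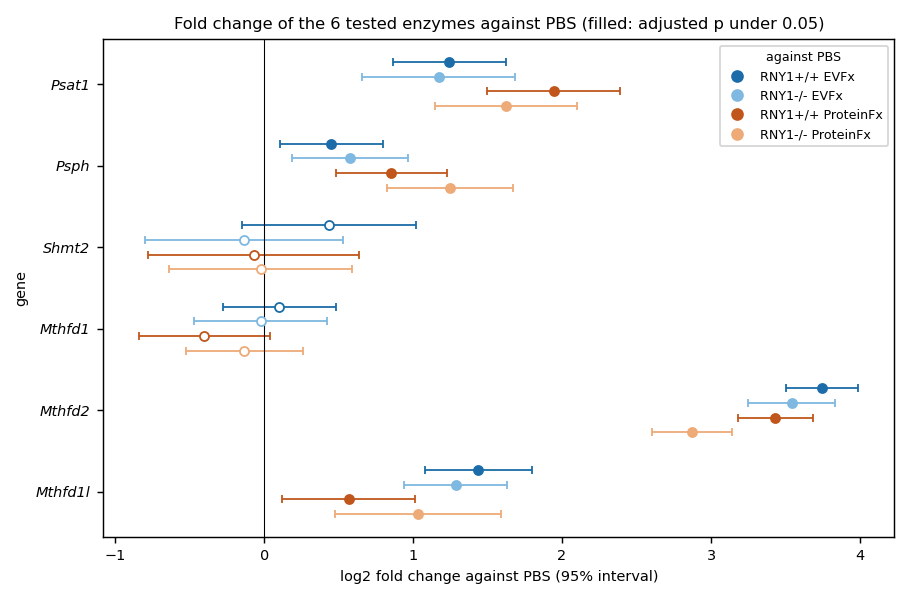
Log2 fold change against PBS (horizontal axis) with its 95% interval for the 6 tested enzymes (vertical axis), 4 treatments each, filled where the adjusted p was under 0.05. Mthfd2 lies between 2.87 and 3.75, Psat1 between 1.17 and 1.94, and the intervals of Shmt2 and Mthfd1 include 0.

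The source genotype comparison asks whether fluid from RNY1-/- mice acted differently from RNY1+/+ fluid of the same fraction. With ProteinFx, Mthfd2 fell from 131 ± 6.82 to 95.4 ± 9.03 CPM (SD, n = 4), with no overlap between groups. The log2 fold change was -0.54 (SE 0.10, 95% interval -0.75 to -0.33, adjusted p = 0.00581). It was -0.61 (adjusted p = 0.00294) without RNY1-/- ProteinFx replicates 1 and 2, and -0.49 (adjusted p = 0.00242) without replicates 3 and 4. It was the only one of 7 members tested that passed, beside 5.57% of the 10468 genes tested, and it did not reach the fold limit. No member was a DEG in any comparison between treatments or in the interaction, beside 1.82% of genes between ProteinFx genotypes, 2.35% between EVFx genotypes, 13.5% and 8.97% between fractions of RNY1+/+ and RNY1-/- fluid, and 7.79% in the interaction. Psph had the opposite sign, with all 4 RNY1-/- ProteinFx libraries above the RNY1+/+ range, but a log2 fold change of 0.39 (95% interval 0.04 to 0.75, adjusted p = 0.201) that did not pass. Its value was 0.63 (adjusted p = 0.0346) without replicates 1 and 2 and 0.18 (adjusted p = 0.383) without replicates 3 and 4. Mthfd1l gave 0.51 (95% interval -0.00054 to 1.02, adjusted p = 0.26), which became -0.04 (adjusted p = 0.941) without replicates 1 and 2 and 0.81 (adjusted p = 0.00466) without replicates 3 and 4. Of all genes, 866 of 10390 passed without replicates 1 and 2, and 2903 of 10481 without replicates 3 and 4. For Psat1, Phgdh, Mthfd1 and Shmt2 the intervals included 0, with log2 fold changes from -0.30 to 0.28.

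With EVFx, Mthfd2 averaged 162 ± 8.49 CPM from RNY1+/+ and 135 ± 20.5 CPM from RNY1-/- fluid. The log2 fold change was -0.20 (95% interval -0.39 to -0.0026, adjusted p = 0.082) and did not pass. RNY1-/- EVFx replicate 2 decided this value, which was -0.29 (adjusted p = 0.00819) without it. Shmt2 alone passed, falling from 7.24 ± 1.60 to 4.82 ± 1.48 CPM with a log2 fold change of -0.58 (SE 0.22, adjusted p = 0.0434), while 52.1% of the 10320 genes tested passed the same limit. In this comparison the changes of all genes tracked transcript GC (Spearman's rho -0.654 across genes, which are not independent), and the Shmt2 transcript is at 57.4% GC where the median gene is at 48.6%. With length and GC trends removed the Shmt2 value was -0.12 (adjusted p = 0.689). It was also lost without RNY1+/+ EVFx replicate 2 (-0.60, adjusted p = 0.0699) or 4 (-0.45, adjusted p = 0.127) and without RNY1-/- EVFx replicate 1 (-0.41, adjusted p = 0.143) or 4 (-0.53, adjusted p = 0.1). The other members had log2 fold changes from -0.21 to 0.14, with intervals within -0.78 and 0.44 and including 0.

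The difference between these genotype effects was tested as an interaction over 16 libraries. For Mthfd2 it was -0.35 (SE 0.13, 95% interval -0.61 to -0.08, adjusted p = 0.0441), so the fall was greater with ProteinFx, beside 33% of 10444 genes that passed. Leaving out RNY1-/- EVFx replicate 3 or 4 kept the call (adjusted p = 0.0347 and 0.0468), and leaving out any 1 of the other 14 libraries lost it (log2 values from -0.37 to -0.25, adjusted p from 0.0519 to 0.0957). Other tools, scalings, filters and fits kept the Mthfd2 call in 7 of 11 settings (log2 values from -0.45 to -0.19, adjusted p from 0.0107 to 0.398). Larger values without a call were those of Shmt2 (0.65, 95% interval -0.09 to 1.39, adjusted p = 0.151) and Mthfd1 (0.41, -0.12 to 0.93, adjusted p = 0.208). Psph was at 0.25, Psat1 at -0.21 and Phgdh at -0.04, also without a call. For Mthfd1l the interaction was 0.66 (95% interval 0.11 to 1.21, adjusted p = 0.0596). It was 0.12 (adjusted p = 0.817) without RNY1-/- ProteinFx replicates 1 and 2, and 0.97 (adjusted p = 0.000867) without replicates 3 and 4. Of all genes, 350 of 10400 and 5664 of 10430 passed in these fits. The Mthfd1l interaction passed without RNY1+/+ EVFx replicate 1 (0.74, adjusted p = 0.0498), RNY1+/+ ProteinFx replicate 1 (0.79, adjusted p = 0.0429), or RNY1-/- ProteinFx replicate 3 (0.79, adjusted p = 0.0142) or 4 (0.79, adjusted p = 0.0203). It stayed without a call in 9 of the 11 other settings and passed in the rest (log2 values from 0.46 to 0.83, adjusted p from 0.0148 to 0.202).

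The fractions were then compared within each donor genotype, with the reservation on doses given above. For RNY1+/+ fluid, 5 of the 7 members tested differed between ProteinFx and EVFx, where 63.3% of the 10443 genes tested did, 31.1% higher and 32.2% lower. The member count is near that share and is no result about the members. Psat1 (log2 fold change 0.70, adjusted p = 0.00191) and Psph (0.41, adjusted p = 0.0155) were higher with ProteinFx. Mthfd1l (-0.86, adjusted p = 0.000225), Mthfd2 (-0.31, adjusted p = 0.00272) and Mthfd1 (-0.50, adjusted p = 0.0203) were lower. The Psph call was lost without RNY1+/+ ProteinFx replicate 1 (0.37, adjusted p = 0.0536), with housekeeping scaling (0.32, adjusted p = 0.0578), with no filter (0.29, adjusted p = 0.208) and with thinned counts (0.26, adjusted p = 0.275). The Mthfd1 call was lost without RNY1+/+ ProteinFx replicate 1 (-0.46, adjusted p = 0.0592) or 4 (-0.41, adjusted p = 0.0753), and with length and GC trends removed (-0.25, adjusted p = 0.22; rho with GC across genes -0.493). Shmt2 did not pass (-0.52, adjusted p = 0.0708), but did without RNY1+/+ ProteinFx replicate 2 (-0.71, adjusted p = 0.0232) or 3 (-0.63, adjusted p = 0.0492), and its value was -0.0059 with those trends removed. Over 11 other settings Shmt2 stayed without a call in 9 and passed in the rest (log2 values from -0.64 to -0.00065, adjusted p from 0.0096 to 0.998). Phgdh did not pass, at -0.12 (95% interval -0.64 to 0.39).

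For RNY1-/- fluid, 2 members passed, beside 29.2% of the 10416 genes tested, with 14.6% higher and 14.6% lower. Mthfd2 was lower with ProteinFx (-0.67, SE 0.11, adjusted p = 0.000576) and Psph was higher (0.65, SE 0.17, adjusted p = 0.0126). Psat1 was at 0.46 (95% interval -0.03 to 0.96, adjusted p = 0.155), and passed in the fit with the replicate number as a block (0.48, adjusted p = 0.0386) and without RNY1-/- EVFx replicate 3 (0.67, adjusted p = 0.0349). Mthfd1l was at -0.23 (adjusted p = 0.445), and at -0.77 (adjusted p = 0.00481) without RNY1-/- ProteinFx replicates 1 and 2.

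**Figure D3:**
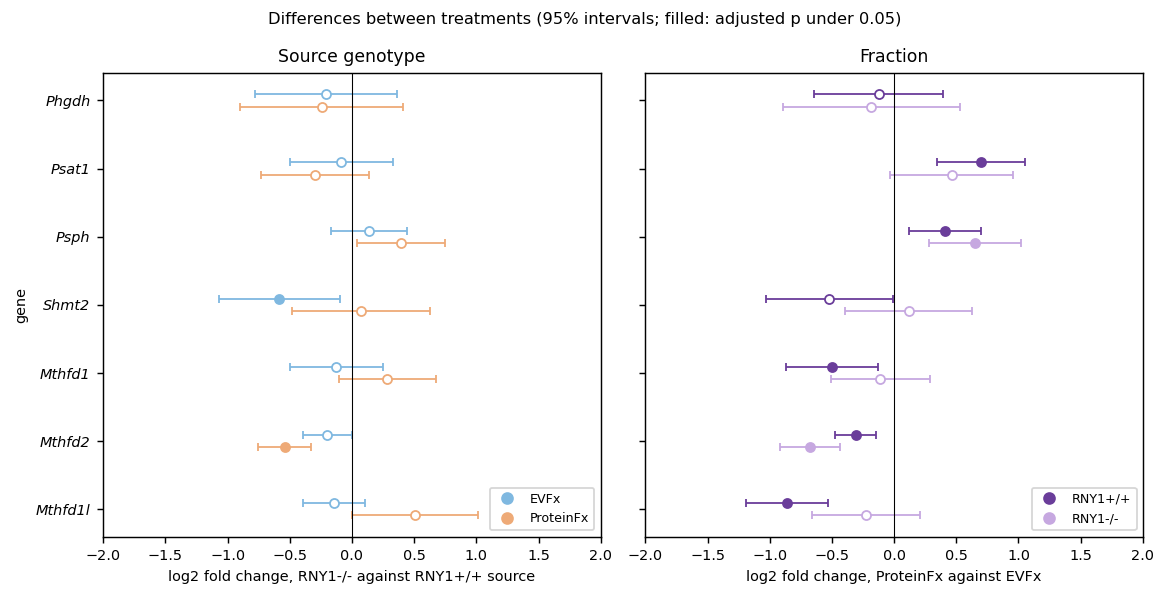
Log2 fold changes with 95% intervals (horizontal axes) of the 7 members tested (vertical axis), for RNY1-/- against RNY1+/+ fluid in each fraction on the left and ProteinFx against EVFx for each genotype on the right, filled where the adjusted p was under 0.05. Mthfd2 is at -0.54 for the genotype effect in ProteinFx, and in the right panel Psat1 and Psph lie to the right of 0 while Mthfd2 and Mthfd1l lie to the left.

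Over the 20 libraries, the gene whose log2 CPM was most like that of Mthfd2 was Atf4 (Pearson's r = 0.993 among 7552 genes with a mean of at least 10 CPM), followed by Ms4a6d (r = 0.989). Both values rest largely on the gap between PBS and the treated libraries, which share groups and depths. Atf4 held between 65.0 and 72.3 CPM in PBS and between 200 and 303 CPM in the treated libraries. Within the 16 treated libraries r with Mthfd2 was 0.766, on log2 of the deposited CPM, a scaling that differs from that of the values over 20 libraries. Atf4 was higher under all 4 treatments, with log2 fold changes of 2.21, 2.00, 2.09 and 1.79 (adjusted p from 3.13e-08 to 7.79e-07). Between RNY1-/- and RNY1+/+ ProteinFx its log2 fold change was -0.28 (adjusted p = 0.156). The patterns nearest to Mthfd1l were Pgk1 (r = 0.919), a glycolytic kinase, and Slc35b1 (r = 0.907), and those nearest to Psph were Gbp8 (r = 0.896) and Gdap2 (r = 0.892). The other 6 members were under a mean of 10 CPM and were not compared in this way.

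**Figure D4:**
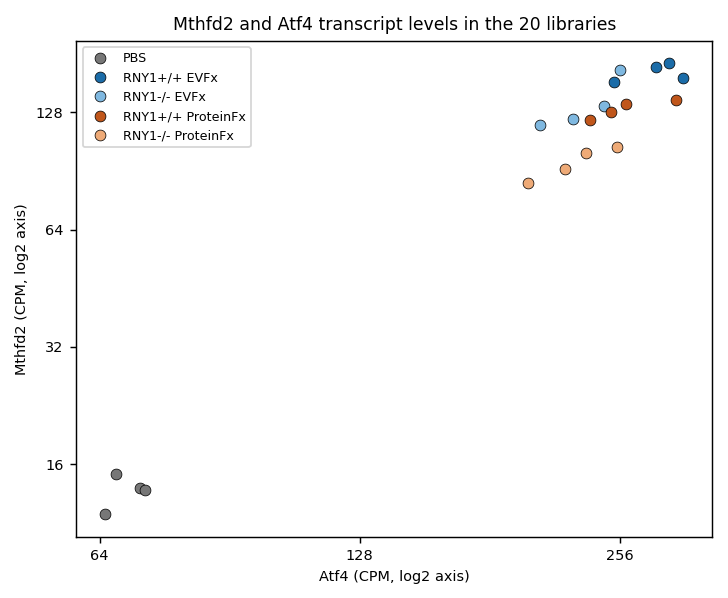
Mthfd2 against Atf4 in CPM, both axes log2 scaled, 1 point per library coloured by group. The 4 PBS libraries sit apart at the lower left (Atf4 at most 72.3 CPM), and at like Atf4 levels the RNY1-/- ProteinFx libraries hold less Mthfd2 (at most 104 CPM) than those of the other treatments (at least 119 CPM).

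In the list of Atf4 and other known ATF4 targets, with 25 genes and no member of the enzyme group, 23 were tested against PBS. Under RNY1+/+ EVFx 20 were higher and 0 lower, under RNY1-/- EVFx 16 and 1, under RNY1+/+ ProteinFx 18 and 1, and under RNY1-/- ProteinFx 17 and 0. The gene that was lower was Atf5. The median log2 fold changes of the list were 1.39, 1.11, 0.86 and 0.80, beside -0.03 over all genes. Asns rose from 9.11 CPM in PBS to group means between 54.9 and 91.2 CPM, and was higher with ProteinFx than with EVFx (log2 fold change 0.71, adjusted p = 3.29e-05, for RNY1+/+ fluid). Most of the list went the other way in that comparison, with 3 genes higher and 15 lower. Its median log2 fold change was -0.48, beside -0.02 over all genes, of which 31.1% were higher and 32.2% lower. Trib3 rose under every treatment (log2 fold changes 2.90 to 3.70), as did Nupr1 (1.38 to 3.11) and the arginine transporter Slc7a1 (2.18 to 2.53). Slc7a11 differed by fraction, with a mean of 5.08 CPM in PBS, 199 CPM under RNY1+/+ EVFx and 198 CPM under RNY1-/- EVFx, but 10.2 and 5.68 CPM under the corresponding ProteinFx. Its log2 fold change between RNY1+/+ ProteinFx and RNY1+/+ EVFx was -4.21 (SE 0.29, adjusted p = 2.04e-08), in contrast to -0.31 for Mthfd2. Between RNY1-/- and RNY1+/+ ProteinFx 0 of the 23 genes passed in edgeR or in DESeq2, with 3 and 4 at an unadjusted p under 0.05, all lower. Of all 10468 genes tested, 2020 in edgeR and 1743 in DESeq2 were under that limit, a share near these. Between RNY1-/- and RNY1+/+ EVFx 1 gene of the list was higher and 12 were lower, with a median log2 fold change of -0.32. Of all 10320 genes tested there, 2633 were higher and 2743 lower, with a median of -0.0012. Changes in that comparison tracked transcript GC, as given above.

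Among 17 genes of the folate cycle and folate transport, 12 or 13 were tested against PBS. Under RNY1+/+ EVFx 2 were higher and 6 lower, under RNY1-/- EVFx 3 and 6, under RNY1+/+ ProteinFx 2 and 3, and under RNY1-/- ProteinFx 1 and 3. Their median log2 fold changes were -0.49, -0.21, -0.10 and 0.03, beside -0.03 over all genes. Under ProteinFx the 3 lower genes are a share near the 29.3% and 19% of all genes that were lower. The folate receptor gene Folr2 was lower under all 4 treatments (log2 fold changes -1.70, -2.01, -1.60 and -1.28). Tyms, the thymidylate synthase, was also lower under all 4 (-1.46, -1.69, -1.08 and -1.15). Fpgs, which adds glutamates to folates, was lower under 3 treatments (-1.21, -1.18 and -1.18, adjusted p from 0.0145 to 0.0383) and at -0.49 (adjusted p = 0.273) under RNY1+/+ EVFx. Mthfd2l, the paralog of Mthfd2, did not share its rise, with log2 fold changes of -0.52 (adjusted p = 0.0346), 0.30, 0.06 and -0.31. The mitochondrial folate carrier Slc25a32 changed by 0.42 under RNY1-/- EVFx and under RNY1+/+ ProteinFx (adjusted p = 0.0465 and 0.0488).

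In a list of 19 proliferation and DNA replication genes, 15 of 16 tested were lower under each EVFx treatment, and 10 of 16 and 10 of 17 under RNY1+/+ and RNY1-/- ProteinFx. None was higher. The ribonucleotide reductase subunit Rrm2 fell by 2.68, 2.11, 1.91 and 1.68 on the log2 scale. Cyclin A2 (Ccna2) fell by 2.61, 2.83, 1.73 and 1.80, Mcm5 by 2.63, 2.26, 0.92 and 1.23, and Birc5 by 1.93, 2.36, 1.79 and 2.26.

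**Figure D5:**
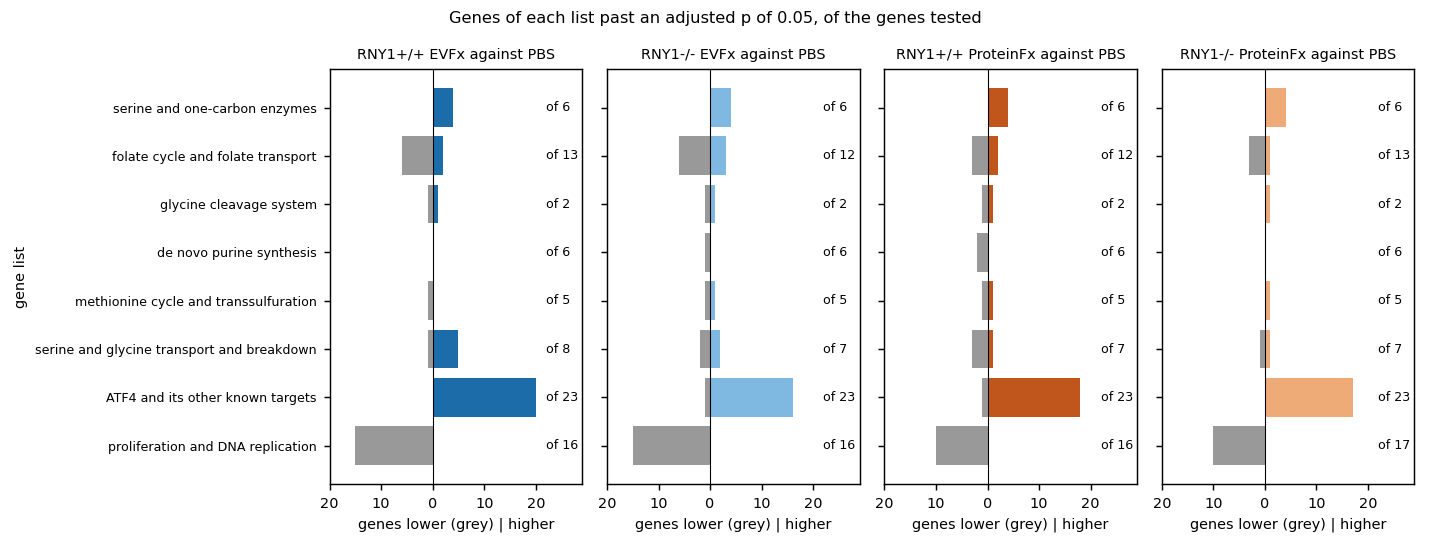
Number of genes past an adjusted p of 0.05 (horizontal axes, higher in colour to the right, lower in grey to the left) in each gene list (vertical axis) under each treatment against PBS, with the number tested at the right. The ATF4 list has 16 to 20 genes higher of 23, and the proliferation list 10 to 15 genes lower with none higher.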

How the data were processed

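The authors' service provider prepared 3′ libraries of polyadenylated RNA with molecular identifiers, filtered reads with fastp 0.24.0, aligned them with STAR 2.7.11 to GRCm39, removed duplicates and counted exons and 3′ UTRs strand-specifically with featureCounts (Subread 2.1.1), sharing multi-mapped reads as fractions. These expected counts were deposited unscaled, next to the authors' CPM values, taken over the total of each library. Counts were rounded here. All columns matched a labelled sample.

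Each comparison used the 8 libraries of 2 groups, and the interaction 16. Genes passed edgeR's filterByExpr and a mean of 3 CPM. TMM factors set the scaling, and edgeR 4.0.16 gave the quasi-likelihood test (glmQLFit, glmQLFTest), with Benjamini-Hochberg adjustment over all genes tested. SEs are the log2 fold change divided by √F. Scripts were tested on simulated counts. R 4.3.3, DESeq2 1.42.0, python 3.11.15 and pandas 2.3.3 were used. Log2 CPM for likeness between genes over 20 libraries had TMM scaling and a prior count of 2. The r within the 16 treated libraries used log2 of the deposited CPM, with no TMM scaling or prior count.

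The members and gene lists were chosen with earlier results of these data known. Whether libraries of a group share a pool of fluid, a mouse or a well is not given in the sources used here, so p-values measure the spread between these libraries, which may be technical. Named genes were all 9 members, Mthfd2l, Tyms, Slc25a32, Atf4 and Asns, up to 3 genes per list with the largest absolute log2 fold change among those with an adjusted p under 0.05 in RNY1+/+ EVFx or RNY1+/+ ProteinFx against PBS, and the 2 genes most like each member of at least 10 CPM; some genes that this rule names are not reported here. Atf5 was named after its values were seen, as was the split of RNY1-/- ProteinFx libraries. All library names share 1 prefix, and whether it marks a batch is not given in the sources used here.

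Same-numbered libraries were checked for shared deviations from their group means over 10637 genes. All 4 correlations exceeded 0.1 only for RNY1-/- EVFx with PBS (lowest 0.129) and with RNY1-/- ProteinFx (lowest 0.218). Each RNY1-/- EVFx library was most like the RNY1-/- ProteinFx library of its own number, so a replicate block counts as a pairing there, a hint from the data alone. With PBS the numbers did not match in this way. PBS replicates 1, 3 and 4 were most like RNY1-/- EVFx replicates 2, 4 and 1, and only replicate 2 was most like its own number.

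Promoters came from RefSeq (GRCm38.p6), positions, lengths and GC from GENCODE on GRCm38, which differs from the authors' build. Alternatives covered DESeq2, total-count, RLE and housekeeping (Rab14, Arpc2, Cltc) scaling, filters, the fold limit, 1 fit of all 20 libraries, thinned counts, the block, removal of length and GC trends (splines of 4 degrees of freedom) and leaving out each library.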

Additional observations from a re-analysis of the deposited data

Results flagged for a closer look

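Of 45 sets of 4 libraries (9 genes in 5 groups), 2 held a library far from the other 3, where chance flags about 1 in 20. Mthfd1 in PBS replicate 3 was at 8.23 CPM, with the other PBS libraries between 11.7 and 12.2 CPM. Shmt1 in RNY1-/- ProteinFx replicate 1 was at 0.189 CPM (1 count), with the other libraries of that group between 1.82 and 2.098 CPM.

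The genotype effect on Mthfd2 differed between the fractions by -0.35 on the log2 scale in the interaction test (edgeR, adjusted p = 0.0441), with a log2 fold change of -0.54 in ProteinFx and -0.20 in EVFx. The call was lost without 14 of the 16 libraries, each left out in turn, and was kept in 7 of 11 other settings. Interaction values of all genes tracked transcript GC (rho 0.585), and with length and GC trends removed the Mthfd2 value was -0.45 (adjusted p = 0.0107).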

How the results depend on the processing

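Of 26 calls on members, 19 held under the other tool, scalings, filters and fits and with each library left out in turn, and 27 of the 33 values without a call stayed so; the calls on Mthfd2 and Psat1 against PBS are among the 19. These counts leave aside the fold limit and the omission of 2 libraries. Without RNY1-/- ProteinFx replicates 1 and 2, Mthfd1l lost its call against PBS and, against RNY1-/- EVFx, gained one, as did Psph between ProteinFx genotypes. Without replicates 3 and 4, Mthfd1l gained one between ProteinFx genotypes and in the interaction. The Mthfd2 interaction lost its call without either pair. Without replicates 1 and 2 it was at -0.40 (edgeR, unadjusted p = 0.0093, adjusted p = 0.101), beside an unadjusted p of 0.0137 with all libraries. Of all genes 350 of 10400 passed in that fit, beside 3450 of 10444 with all libraries. Without replicates 3 and 4 it was at -0.28 (adjusted p = 0.08), where 5664 of 10430 genes passed. Total-count scaling shifted the median of all genes by up to -0.24 (log2) against PBS. With it Psph was at 0.27 (adjusted p = 0.178) under RNY1+/+ EVFx and Mthfd1l at 0.40 (adjusted p = 0.123) under RNY1+/+ ProteinFx, and the Mthfd2 interaction was at -0.19 (adjusted p = 0.301). Low counts limit Phgdh, Shmt1 and Aldh1l2.

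For RNY1-/- against RNY1+/+ EVFx the count of 1 member became 0 with DESeq2, housekeeping scaling, thinned counts, all 20 libraries, or length and GC trends removed (with or without the block), and 2 with total counts or the replicate block, where Mthfd2 passed (-0.20, adjusted p = 0.046). Leaving out 1 library gave 0 to 2.  For RNY1+/+ ProteinFx against EVFx, 5 became 3 with thinned counts and 3 to 6 when 1 library was left out. The interaction count of 1 became 0 with filterByExpr alone or all 20 libraries, 0 to 1 when 1 library was left out, and 0 without RNY1-/- ProteinFx replicates 1 and 2. In the other settings a count of 1 was not always Mthfd2. Its call held in 7 of 11 settings, and Mthfd1l stayed without a call in 9 of 11. For RNY1-/- against RNY1+/+ ProteinFx, leaving out either pair of RNY1-/- ProteinFx libraries gave 2 in place of 1. Calls over all genes rose as well, from 583 of 10468 to 866 of 10390 without replicates 1 and 2. Without replicates 3 and 4 they rose to 2903 of 10481, so the member counts there are no result about the members. The fold limit left 2 of 4 members for RNY1+/+ ProteinFx against PBS, and 0 in the comparisons between fractions and genotypes and the interaction. The replicate block gave 0.45 (adjusted p = 0.0534) for Psph under RNY1+/+ EVFx and, beyond the results already given, changed no other call. The cause of these changes was not tested.

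Signs turned for values without a call. With trends removed (and with the block as well) these were Mthfd1 under RNY1-/- EVFx, 0.15 (0.12) against PBS and 0.12 (0.12) against RNY1+/+ EVFx; Mthfd1l 0.026 (0.038), RNY1-/- against RNY1+/+ EVFx; Phgdh 0.25 (0.23) there and 0.38 (0.34) for RNY1+/+ ProteinFx against EVFx; and Shmt2 against PBS 0.35 (0.34), 0.45 (0.48) and 0.44 (0.40) for RNY1-/- EVFx, RNY1+/+ and RNY1-/- ProteinFx. Mthfd1 under RNY1-/- ProteinFx was at 0.0059 with trends removed. Total counts gave Mthfd1 -0.075 under RNY1+/+ EVFx and 0.070 for RNY1-/- ProteinFx against EVFx, and Phgdh 0.13 in the interaction. Thinned counts gave Mthfd1 0.16 for RNY1-/- ProteinFx against EVFx and Shmt2 0.074 and 0.10 under RNY1+/+ and RNY1-/- ProteinFx. Shmt2 under RNY1-/- ProteinFx was at 0.0015 with DESeq2 and 0.0074 with no filter, Mthfd1 under RNY1-/- EVFx at 0.040 with housekeeping scaling, and the Phgdh interaction at 0.058 with no filter and 0.018 with the block. Leaving out 1 library gave ranges through 0 for Mthfd1 (-0.014 to 0.18 and -0.15 to 0.11 under RNY1+/+ and RNY1-/- EVFx against PBS, -0.26 to 0.0028 between EVFx genotypes, -0.22 to 0.032 for RNY1-/- ProteinFx against EVFx), Shmt2 (-0.31 to 0.13, -0.26 to 0.18 and -0.21 to 0.21 under RNY1-/- EVFx, RNY1+/+ and RNY1-/- ProteinFx, -0.093 to 0.26 between ProteinFx genotypes, -0.032 to 0.27 for RNY1-/- ProteinFx against EVFx), Psat1 (-0.28 to 0.047 between EVFx genotypes) and Phgdh (-0.27 to 0.041 for RNY1+/+ ProteinFx against EVFx, -0.26 to 0.24 in the interaction).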

Other observations

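The serine and glycine transport and breakdown list (13 genes) moved in both directions. Under RNY1+/+ EVFx 5 of 8 genes tested were higher and 1 lower, under RNY1-/- EVFx 2 of 7 and 2, under RNY1+/+ ProteinFx 1 of 7 and 3, and under RNY1-/- ProteinFx 1 of 7 and 1. Over all genes, 21.7% were higher and 22.8% lower under RNY1+/+ EVFx, and 27.7% and 30.6% under RNY1-/- EVFx. The shares were 25.9% and 29.3% under RNY1+/+ ProteinFx, and 16.7% and 19% under RNY1-/- ProteinFx. The list counts under both RNY1-/- treatments are near these shares and are no result about the list. The neutral amino acid transporter gene Slc38a2 rose under all 4 treatments, by 0.92, 1.30, 1.24 and 1.24 on the log2 scale (edgeR, adjusted p from 7.39e-05 to 0.00144). The glycine transporter gene Slc6a9 was at or under 3 counts in every PBS library and averaged 6.75 CPM under RNY1+/+ EVFx, at least 11.7-fold higher than the mean level of 3 counts in a PBS library, and 3.71 CPM under RNY1-/- EVFx, at least 6.46-fold higher. Under ProteinFx it was at or under 3 counts in 3 of 4 libraries of each group. The mitochondrial serine carrier gene Sfxn1 was higher under RNY1+/+ EVFx (0.39, adjusted p = 0.0116) and lower under RNY1+/+ ProteinFx (-0.44, adjusted p = 0.00858). Its relative Sfxn3 was lower under all 4 treatments (-0.96, -1.51, -1.08 and -0.90).

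Of 6 de novo purine synthesis genes, 0, 1, 2 and 0 were lower under RNY1+/+ EVFx, RNY1-/- EVFx, RNY1+/+ ProteinFx and RNY1-/- ProteinFx and none was higher, with Gart at -0.59 (adjusted p = 0.00494) and Paics at -0.35 (adjusted p = 0.0266) under RNY1+/+ ProteinFx. Under RNY1+/+ ProteinFx 29.3% of all genes were lower, a share near 2 of 6, so this count is no result about the list. Of 5 genes tested in the methionine cycle and transsulfuration, 1 or 2 passed under each treatment, among them methionine synthase (Mtr, -0.80 under RNY1+/+ EVFx and -0.42 under RNY1+/+ ProteinFx) and Mat2b (0.70 under RNY1+/+ ProteinFx). Over all genes, between 3878 of 10854 (RNY1-/- ProteinFx) and 6255 of 10727 (RNY1-/- EVFx) passed. In the glycine cleavage system only 2 of 4 genes, Dld and Gcsh, passed the filter, and Gldc and Amt were not tested. Dld rose under all 4 treatments (0.54, 0.87, 0.61 and 0.59), while Gcsh was lower under RNY1+/+ EVFx, RNY1-/- EVFx and RNY1+/+ ProteinFx (-0.55, -0.72 and -0.61) and at -0.42 (adjusted p = 0.0866) under RNY1-/- ProteinFx.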
